A study of Homo sapiens with 12 samples.

Results

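The comparison described here is the difference between the responses of 2 genotypes to the same drug, measured in all 12 of the 12 samples of the series. The difference was taken as the response to GSK-LSD1 in insR cells minus the response to GSK-LSD1 in wild-type (WT) cells, each against DMSO on the log2 scale, so a positive value is a response that was more positive in insR cells. The cells were SET-2, an established human cell line that the labels give as acute myeloid leukemia. WT cells carried wild-type LSD1, and insR cells carried LSD1 with the insertion Leu659_Asn660insArg, which adds 1 arginine and which the labels call drug-resistant. Each genotype was given 0.1% (v/v) DMSO or 250 nM GSK-LSD1 for 48 h, with 3 libraries in each of the 4 groups. Libraries given DMSO are called controls or untreated below, and those given GSK-LSD1 treated. The labels used here do not say how the insR cells were derived, whether they are 1 clone, or whether replicates came from separate cultures. The p-values therefore rest on the spread among these libraries alone, and that spread may be technical. RNA was sequenced from the 3' ends of polyadenylated transcripts, and 12864 of the 63677 genes in the count tables had enough reads to be tested.

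LSD1, the product of KDM1A, is an enzyme that removes methyl groups from histone H3 and works within a repressor complex with CoREST and histone deacetylases. In blood cells the zinc finger repressors GFI1 and GFI1B bind LSD1 through their SNAG domain and bring it to DNA, and both genes are known to be restrained by their own products. GSK-LSD1 inhibits the enzyme irreversibly by reacting with its FAD cofactor, next to the pocket in which the SNAG domain and the histone tail bind. LSD1 is known for roles in red cell, megakaryocyte and granulocyte development.

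Depth ranged from 4837096 to 10141155 reads in genes per library, so that 3 reads, up to which a gene with no read could lie, were worth 0.296 to 0.62 CPM (counts scaled to a common library size), the unit of level used below. Of the markers checked against the label, the myeloid and progenitor genes CD33, KIT and CD34, the megakaryocyte gene ITGA2B, the leukocyte gene PTPRC and the red cell genes GATA1 and HBG1 were expressed in all libraries, while MPO did not pass 0.916 CPM and PF4 and GP1BB had 0 reads. KDM1A itself was at 290, 238 and 266 CPM in WT controls, 219, 218 and 213 in treated WT, 109, 107 and 111 in insR controls and 107, 101 and 110 in treated insR. Its difference in response was 0.26 on the log2 scale and was not called (edgeR adjusted p = 0.106), and gene counts do not show the inserted arginine, so they do not check the genotype. Reads outside genes made up 18.4% to 19.5% of uniquely aligned reads in treated WT, 16.3% to 16.7% in WT controls and 13.7% to 17.1% in the 6 insR libraries. The share of reads from mitochondrial genes was 3.97% to 4.54% in treated WT, against 2.93% to 3.55% in WT controls and 2.70% to 3.58% in insR libraries. The part of these shares in the results below was not tested.

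Promoter windows of 3 genes that hold a motif are shown. GFI1B is 1 of the few genes that still rose in insR cells. EPB42 and SPTB belong to the list of red cell membrane genes. In that list 21 of 27 genes fell in WT cells and 1 fell in insR cells, against 22.5% and 0.264% of all genes tested. The windows hold the 250 bases before the start of each gene, 5′ to 3′ on the strand of the gene, from RefSeq on GRCh38.p14. They lie at chr9:132945281-132945530 on the plus strand for GFI1B, chr15:43221019-43221268 on the minus strand for EPB42 and chr14:64879908-64880157 on the minus strand for SPTB. Capitals mark AAATCA, which holds the core bound by GFI1 proteins, in GFI1B, and AGATAA, a form of the GATA motif, in the other two, each searched on both strands. EPB42 and SPTB were picked after their values were seen, from red cell membrane genes that lost a WT fall, as defined below, and whose windows hold AGATAA. Their matches, WT falls and uncalled insR responses therefore follow from the choice.
GFI1B: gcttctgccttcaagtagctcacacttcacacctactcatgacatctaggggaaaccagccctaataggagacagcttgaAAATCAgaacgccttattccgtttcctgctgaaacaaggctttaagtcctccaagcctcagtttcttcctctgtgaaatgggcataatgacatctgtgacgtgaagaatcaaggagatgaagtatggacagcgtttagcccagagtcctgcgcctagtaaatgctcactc
EPB42: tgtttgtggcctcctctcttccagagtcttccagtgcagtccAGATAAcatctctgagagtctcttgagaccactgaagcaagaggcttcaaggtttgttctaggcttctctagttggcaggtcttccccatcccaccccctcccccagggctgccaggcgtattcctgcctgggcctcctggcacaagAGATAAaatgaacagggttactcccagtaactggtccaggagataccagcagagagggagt
SPTB: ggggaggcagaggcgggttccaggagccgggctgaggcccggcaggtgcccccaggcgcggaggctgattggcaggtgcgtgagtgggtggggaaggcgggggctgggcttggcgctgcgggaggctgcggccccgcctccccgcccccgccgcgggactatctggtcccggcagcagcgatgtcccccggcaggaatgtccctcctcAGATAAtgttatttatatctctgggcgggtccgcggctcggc

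AGATAA was found in 6 of 20 windows of red cell membrane genes (30.0%) and in 3 of 13 windows of globin and haem genes (23.1%), against 4.70% of the 9614 tested genes with a window and 9.37% of all 27305 windows in the table. AAATCA was found in 40 of 432 windows (9.26%) of genes that lost a WT rise of at least 2-fold, in 11 of 270 (4.07%) of genes that lost such a fall, in 6.06% of tested genes and in 11.7% of all windows. The window of GFI1, which also still rose in insR cells, held no AAATCA and is not shown. These matches are descriptions of letters in the reference and show no binding.

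In WT cells 5816 genes changed under the drug, 45.2% of those tested, with 2916 higher (22.7%) and 2900 lower (22.5%). In insR cells 65 genes changed, or 0.505%, with 31 higher (0.241%) and 34 lower (0.264%). The difference itself was called for 3228 genes, or 25.1%, of which 1711 were more positive in insR cells (13.3%) and 1517 more negative (11.8%). The balance of directions depended on the scaling, since upper-quartile scaling gave 1501 more positive and 1712 more negative differences, and 3231 higher and 2564 lower genes in WT cells. All calls are at a Benjamini-Hochberg adjusted p below 0.05 in edgeR. Differences of at least 2-fold were called for 354 genes in the positive and 639 in the negative direction. At an unadjusted p below 0.05 there were 996 genes in the insR response and 4706 in the difference. The count for the insR response was 29 without insR control replicate 1, 34 without replicate 2, 28 without treated insR replicate 1 or 2 and 40 without replicate 3.

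Each gene called in WT cells was then placed by its 3 tests. A response was taken as lost where the difference was called against the WT direction and the insR response was not called, as reduced where both were called and the insR response had the WT direction, as kept where only the insR response was called, in the WT direction, and as reversed where the insR response was called in the opposite direction. Of the 5816 genes, 3094 (53.2%) lost the response, 1430 after a WT rise and 1664 after a WT fall. It was reduced for 39, kept for 11, enlarged for 1 and reversed for 8. For 2610 (44.9%) neither the difference nor the insR response was called, which does not show an equal response, and 53 had at most 3 reads summed over the 6 insR libraries and were set apart. Among the 1557 WT changes of at least 2-fold, 981 (63.0%) were lost, 489 undecided, 44 not detected in insR cells, 38 reduced, 3 kept and 2 reversed. WT calls were chosen on libraries that also enter the difference. The WT and insR responses compare different libraries, but each gene's spread was estimated over all libraries, so their tests are not fully separate.

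**Figure D1:**
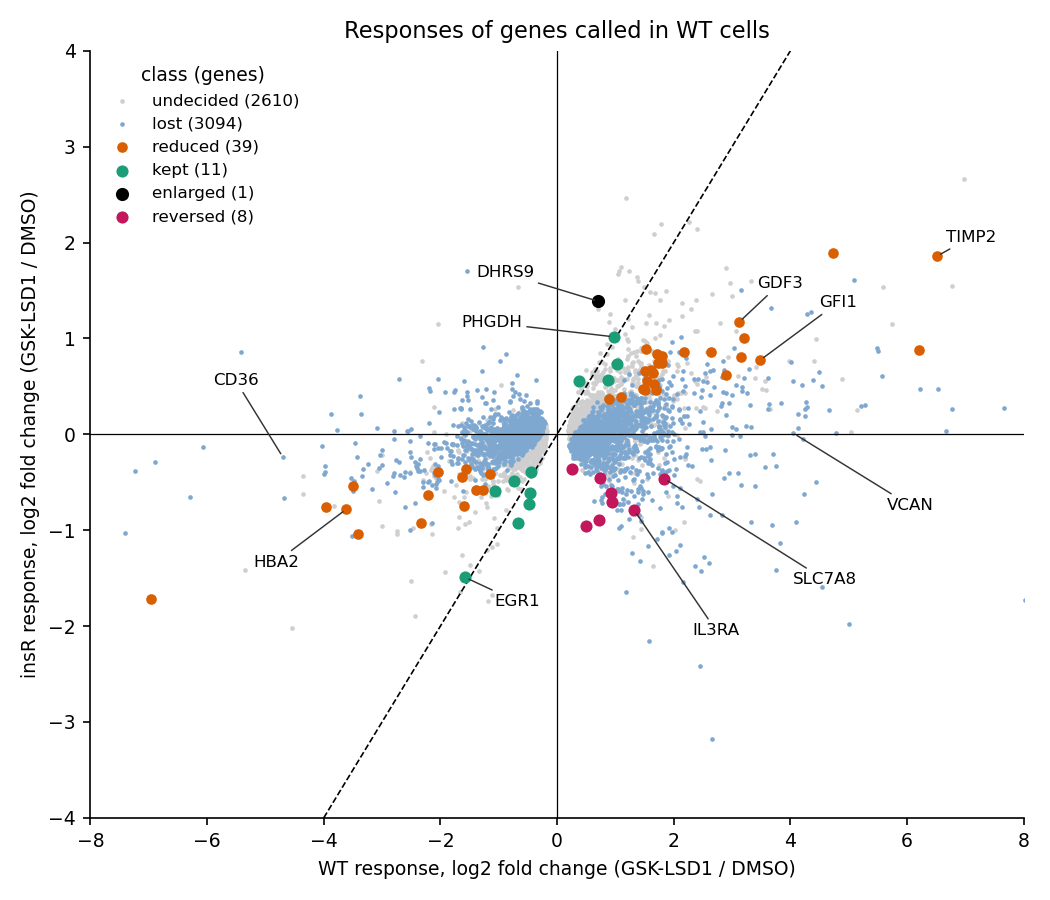
Response to GSK-LSD1 in insR cells (y axis) against that in WT cells (x axis), both log2 fold changes, for genes called in WT cells and coloured by class; the dashed line marks equal responses and 5 points lie outside the axes. Most points lie near 0 on the y axis, and the 8 reversed genes sit at lower right. The 11 kept genes lie on both sides of the dashed line, at 55.4% to 154% of the WT value.

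What remained in insR cells was a small share of the WT change at each size. Genes that rose at least 2-fold in WT cells, 961 with reads in insR cells, had a median log2 fold change of 1.47 in WT and 0.17 in insR cells, or 11.7% of it, and 68.1% had a positive fitted value in insR cells. For the 552 genes that fell at least 2-fold the medians were -1.40 and -0.19, or 13.3%, and 77.7% had a negative fitted value. The medians over all genes tested were 0.011 in WT and -0.001 in insR cells. The WT medians are of genes chosen for their WT change and were not tested against the insR medians.

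**Figure D2:**
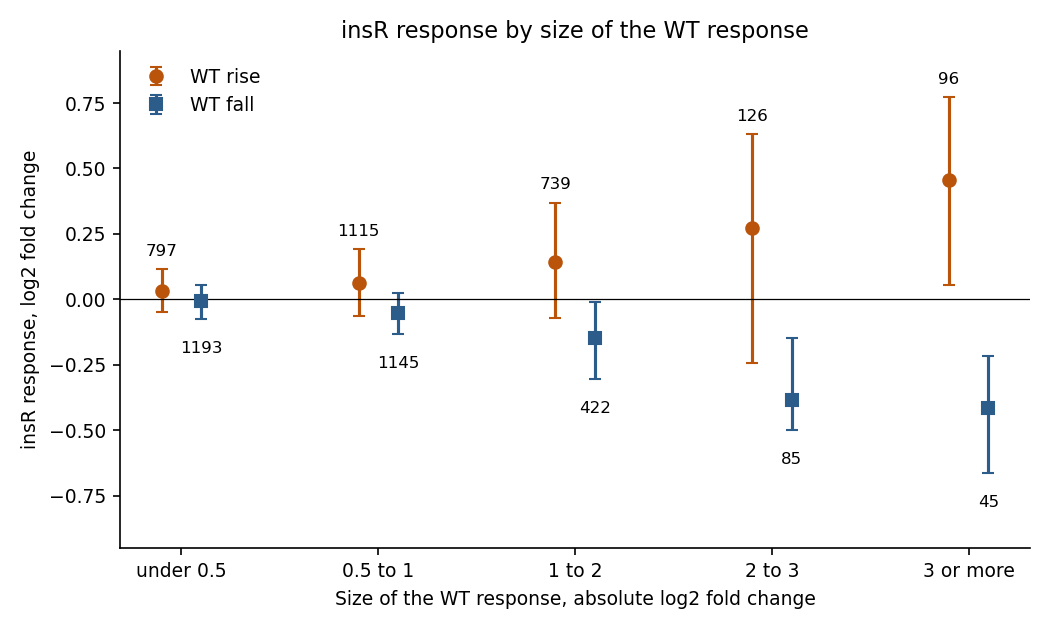
Median insR response (points, log2 fold change, with bars from the lower to the upper quartile) for genes called in WT cells, binned by the size of the WT response, with the number of genes beside each. The medians move from 0.03 to 0.46 for WT rises and from -0.01 to -0.42 for WT falls, on an axis far shorter than the WT responses.

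How much response could have been missed was read from the 95% confidence limits. For 490 of the 606 genes that lost a WT rise of at least 2-fold (80.9%) and 323 of the 375 that lost such a fall (86.1%), the limit of the insR response nearest to the WT change was below 50% of it. For undecided genes of that size this held for 14 of 328 and 15 of 161. Lost and undecided genes were told apart by the call of the difference, so this contrast follows in large part from the classes. Undecided genes had low counts, with medians of 2.27 CPM for rises and 3.85 CPM for falls, against 11.2 and 18.0 CPM for lost genes. Levels were also compared directly, for lost genes of at least 2-fold whose higher WT group averaged 10 CPM or more. After a WT rise, all 6 insR libraries lay at or below the highest untreated WT library for 176 of 427 genes (41.2%), at or above the lowest treated WT library for 16, between both for 68 and in no single position for 167. After a WT fall, all 6 lay at or above the lowest untreated WT library for 124 of 248, at or below the highest treated WT library for 6, between for 37 and mixed for 81.

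Of the 606 genes that lost a WT rise of at least 2-fold, 8 are named here. They had the largest differences among the protein-coding ones with a mean of at least 1 CPM in each group and 10 CPM in 1 group. IL5RA, the alpha chain of the interleukin-5 receptor, was at 1.40, 1.74 and 1.43 CPM in WT controls and 42.2, 37.2 and 38.6 in treated WT, against 2.44, 0.99 and 1.58 in insR controls and 2.42, 3.11 and 1.08 in treated insR. VCAN, the matrix proteoglycan versican, was at 4.74, 6.56 and 4.47 CPM in WT controls and 91.9, 82.4 and 92.0 after the drug, and at 14.1, 16.8 and 18.8 in insR controls and 20.0, 14.1 and 15.2 after the drug. In both genes the treated WT libraries stood above all others and the insR groups overlapped. The difference was -4.40 (SE 0.48, edgeR adjusted p = 3.15e-07) for IL5RA and -4.04 (SE 0.23, adjusted p = 7.57e-12) for VCAN.

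CAMSAP2, a binder of microtubule minus ends, was at 3.92 ± 1.42 CPM (SD, n = 3) in WT controls, 77.0 ± 1.56 in treated WT, 9.61 ± 2.10 in insR controls and 12.3 ± 0.0846 in treated insR. PROCR, the endothelial protein C receptor, went from 1.81 ± 1.12 to 34 ± 9.60 CPM in WT cells and was at 6.02 ± 2.49 and 6.85 ± 2.22 in insR cells. MPZL3, an immunoglobulin-like membrane protein, went from 9.06 ± 3.17 to 144 ± 0.608 CPM in WT cells and was at 4.05 ± 0.671 and 7.04 ± 0.802 in insR cells. Of the 8 named genes of this kind MPZL3 had the highest fitted insR response, 0.75 with limits of 0.30 and 1.21, and it was not called (adjusted p = 0.177). The others were TAC4, a tachykinin precursor, FGD5, an exchange factor for CDC42, and ATF3, a stress-induced transcription factor, with differences of -3.53, -3.35 and -3.93 and insR responses of 0.32, 0.27 and -0.54.

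The genes named in the same way among those that lost a WT fall included red cell and platelet genes. CD36, a fatty acid receptor of red cell precursors, monocytes and platelets, was at 166, 171 and 180 CPM in WT controls and 4.73, 7.68 and 7.13 in treated WT, against 237, 245 and 224 in insR controls and 209, 194 and 196 in treated insR. All insR libraries were above all WT libraries, and treated insR libraries were below untreated ones. The difference was 4.46 (SE 0.15, edgeR adjusted p = 1.79e-16) for CD36, while its insR response of -0.24 was not called (adjusted p = 0.349).

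HBG1 and HBG2, the fetal gamma globins, are near-identical copies whose separate values are uncertain. HBG1 was at 993, 1124 and 1240 CPM in WT controls and 132, 127 and 146 in treated WT, against 2684, 2544 and 2380 in insR controls and 1949, 1986 and 2026 in treated insR. Its treated insR libraries were all below the untreated ones, with a response of -0.35 that was not called (adjusted p = 0.053, 0.00278 to 0.258 over the alternatives). OSBP2, an oxysterol-binding protein, had a difference of 3.59, HBG2 3.08, the platelet collagen receptor GP6 2.82, the amino acid transporter SLC6A19 2.75 and ID4, an inhibitor of helix-loop-helix factors, 2.68. GP6 was at 15.5 ± 0.422 CPM (SD, n = 3) in WT controls and 1.91 ± 0.856 after the drug, and at 11.2 ± 0.437 and 9.63 ± 1.46 in insR cells.

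**Figure D3:**
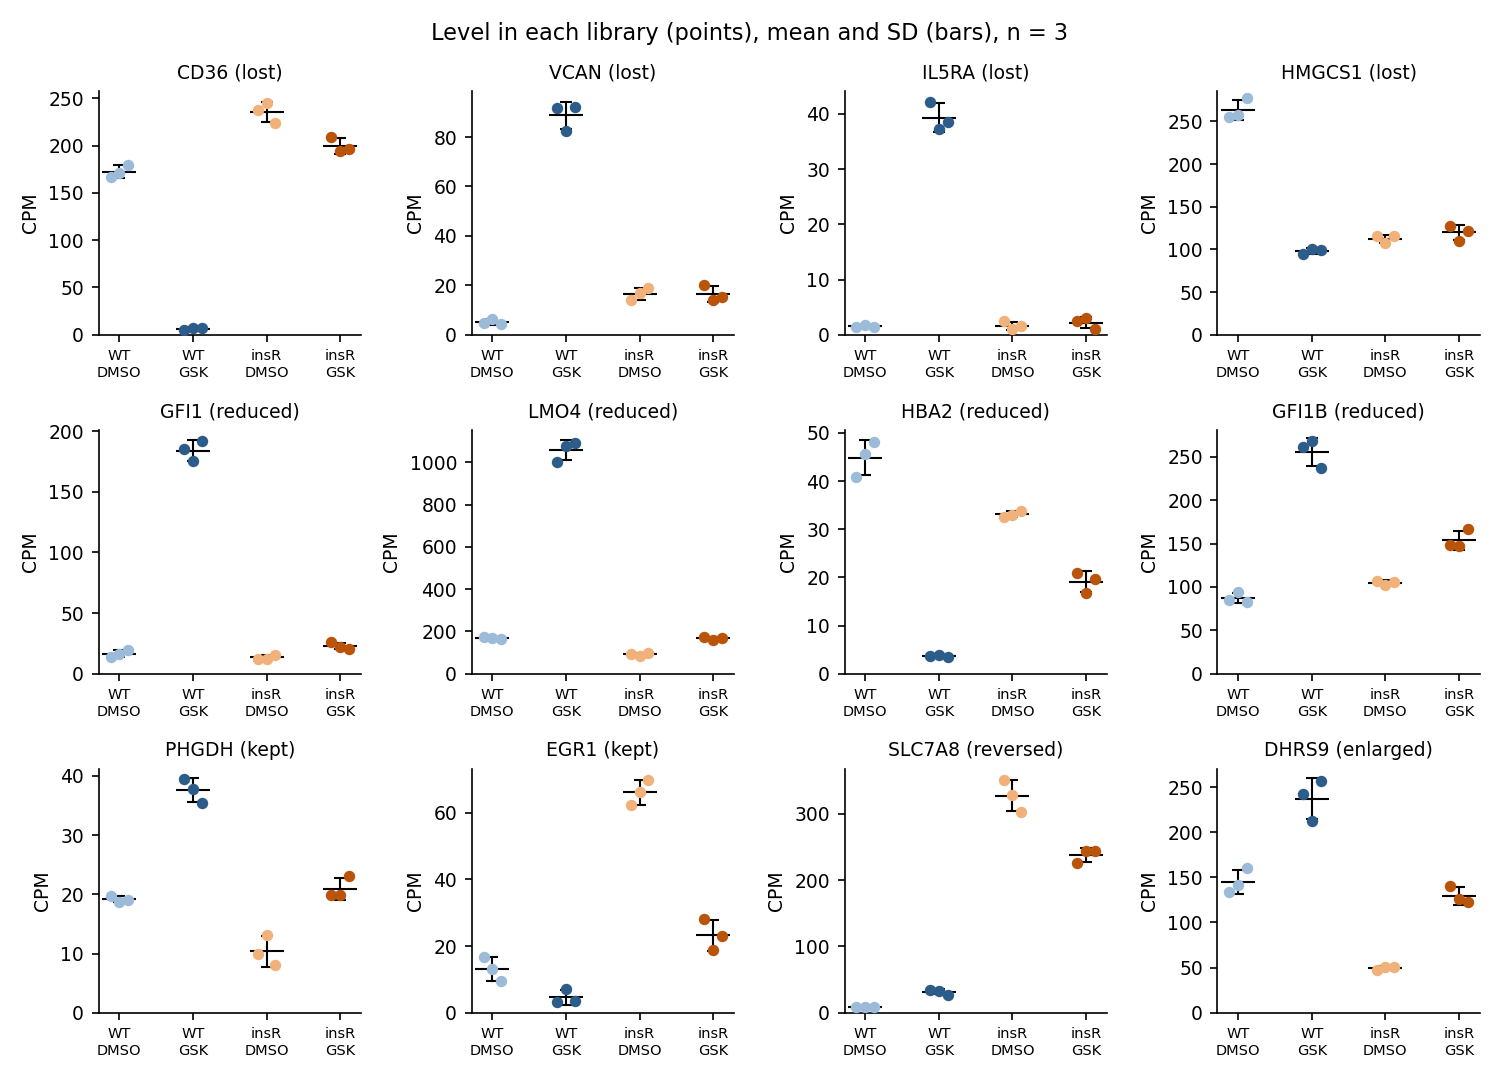
Level in each library (points, CPM on linear axes from 0) with the mean and SD (bars, n = 3) for 12 genes of 5 classes in the 4 groups. Treated WT libraries stand apart for CD36, VCAN and IL5RA, WT controls do so for HMGCS1, and SLC7A8 moves in opposite directions in WT and insR cells.

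The 39 reduced responses kept 14.2% to 58.1% of the WT log2 fold change, with a median of 32.6%, 25 after a rise and 14 after a fall. GFI1 was at 13.5, 16.3 and 19.5 CPM in WT controls and 185, 175 and 192 in treated WT, against 12.4, 12.5 and 15.6 in insR controls and 25.9, 22.4 and 20.4 in treated insR. Untreated levels of both genotypes overlapped, and treated insR libraries lay above them and far below treated WT. GFI1 rose by 3.48 in WT and 0.77 in insR cells on the log2 scale, a difference of -2.71 (SE 0.19, edgeR adjusted p = 1.56e-10). The insR call was lost without insR control replicate 1 (adjusted p = 0.0669) or treated insR replicate 1 (0.0941), with 4.27e-05 to 0.0941 over the alternatives.

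GFI1B, whose promoter window is shown above, was at 85.5, 94.2 and 82.2 CPM in WT controls and 261, 268 and 237 in treated WT, against 107, 102 and 106 in insR controls and 148, 147 and 166 in treated insR. It rose by 1.55 in WT and 0.55 in insR cells (insR adjusted p = 0.00112), 35.7% of the WT value. LMO4, a LIM domain adaptor protein, was at 174, 169 and 166 CPM in WT controls and 1003, 1076 and 1091 in treated WT, and at 92.8, 85.6 and 97.7 in insR controls and 172, 162 and 168 in treated insR. The treated insR libraries thus reached the untreated WT level. GDF3, a TGF-beta family ligand, rose from 11.2 ± 0.699 to 97.8 ± 8.78 CPM (SD, n = 3) in WT cells and from 26.9 ± 1.21 to 60.4 ± 2.51 in insR cells.

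TIMP2, an inhibitor of metalloproteinases, rose from 2.2 ± 0.708 to 201 ± 19.4 CPM in WT cells and from 2.34 ± 0.971 to 9 ± 2.75 in insR cells, with a difference of -4.65 (SE 0.42, adjusted p = 1.1e-07). RSAD2, an antiviral enzyme induced by interferon, rose by 1.80 and 0.74, the scavenger receptor STAB1 by 3.21 and 1.0, and the interleukin-6 receptor IL6R by 1.72 and 0.84 in WT and insR cells. Among the reduced falls, C11orf96 was at 40.8 ± 0.795 CPM (SD, n = 3) in WT controls and 13.7 ± 1.83 in treated WT, against 91.3 ± 1.85 in insR controls and 54.3 ± 3.80 in treated insR. Its 4 groups did not overlap, and it fell by 1.6 in WT and 0.74 in insR cells. The alpha globin genes HBA2 and HBA1, near-identical copies, had insR responses of -0.78 and -0.54 against -3.61 and -3.50 in WT cells. The HBA1 call was lost without insR control replicate 1 (adjusted p = 0.107), treated insR replicate 1 (0.0941) or replicate 2 (0.0907), with 4.5e-05 to 0.107 over the alternatives.

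Of the 39 genes, 11 were reduced under all 19 alternatives with the same threshold, among them STAB1, TIMP2, RSAD2, LMO4, IL6R, GFI1B, GDF3, C11orf96 and HBA2. The count was 17 without insR control replicate 1, 18 without replicate 2 and 24 without replicate 3, and 15 and 18 without treated insR replicate 1 and 2.

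A WT response was kept for 11 genes, 4 that rose and 7 that fell, and their insR response was 55.4% to 154% of the WT value. PHGDH, the first enzyme of serine synthesis, was at 19.7, 18.8 and 19.1 CPM in WT controls and 39.5, 37.8 and 35.4 in treated WT, against 9.86, 13.2 and 8.08 in insR controls and 19.8, 19.9 and 23.1 in treated insR. It rose by 0.97 in WT and 1.02 in insR cells, from a level that was lower in insR than in WT libraries. EGR1, an immediate early transcription factor, was at 16.7, 13.3 and 9.47 CPM in WT controls and 3.21, 7.10 and 3.46 in treated WT, against 62.2, 66.1 and 69.8 in insR controls and 28.0, 18.7 and 23.1 in treated insR. It fell by 1.58 and 1.49, and the treated insR libraries remained above all untreated WT libraries.

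GPR65, a receptor that senses protons, rose from 23.8 ± 3.67 to 48.6 ± 3.62 CPM (SD, n = 3) in WT cells and from 30.8 ± 3.18 to 51.3 ± 4.34 in insR cells. The differences of these 3 genes were 0.05 with 95% limits of -0.38 and 0.48 for PHGDH, 0.08 with -0.58 and 0.74 for EGR1 and -0.29 with -0.65 and 0.07 for GPR65. Differences within these limits are not excluded, so the calls do not show equal responses. PHGDH, EGR1 and GPR65 were kept under all 19 alternatives with the same threshold. The count of kept genes was 6 without insR control replicate 2 and 5, 6 and 7 without treated insR replicate 1, 2 and 3.

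The other 8 kept genes each lost a call when 1 library was left out. PLAAT3, a phospholipase, had insR and WT responses of 0.56 and 0.38, the GTPase regulator ARHGAP27 0.56 and 0.88, the lactate transporter SLC16A3 -0.61 and -0.47, and LBH -0.92 and -0.68. TMOD1, which caps actin filaments of the red cell skeleton, was at -0.59 and -1.07, the chondroitin synthase CHSY1 at -0.40 and -0.44, the lysosomal peptide transporter ABCB9 at -0.48 and -0.75, and TNNI3, cardiac troponin I, at -0.73 and -0.47. For TMOD1 the difference of 0.48 was close to a call (edgeR adjusted p = 0.0613), so its place among kept rather than reduced genes is uncertain. The insR call was lost for PLAAT3 without insR control replicate 1 or 2 or treated insR replicate 2 or 3 (adjusted p 0.064 to 0.13), and for SLC16A3 without insR control replicate 1 or treated insR replicate 1 or 2 (0.0849 to 0.105). LBH and TMOD1 lost it without insR control replicate 1 or 2 or any treated insR library (0.0506 to 0.21 and 0.073 to 0.138), and CHSY1 without the same libraries or treated WT replicate 3 (0.0603 to 0.258). ARHGAP27 lost it without any 1 of the insR libraries, WT control replicate 1 or 2, or treated WT replicate 2 or 3, and with a replicate block (0.0547 to 0.219), and ABCB9 without any 1 of the insR libraries or WT control replicate 1 or 2 (0.0507 to 0.258). For TNNI3 the WT call was lost without WT control replicate 3 or treated WT replicate 2 or 3, with limma-voom and with upper-quartile scaling (0.0527 to 0.186). Over all 19 alternatives the lowest adjusted p was 0.00264 for PLAAT3, 1.69e-06 for SLC16A3, 0.00129 for LBH, 0.016 for TMOD1, 0.0137 for CHSY1, 0.0278 for ARHGAP27, 0.0187 for ABCB9 and 0.00273 for TNNI3.

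DHRS9, a retinol dehydrogenase, was the only gene called in WT cells whose response was called as larger, in the same direction, in insR cells. It was at 134, 142 and 160 CPM in WT controls and 242, 212 and 257 in treated WT, against 47.3, 50.5 and 51.1 in insR controls and 140, 126 and 122 in treated insR. Untreated insR libraries were the lowest of all, and 1 treated insR library lay within the untreated WT range with the other two below it. DHRS9 rose by 0.71 in WT and 1.39 in insR cells, with a difference of 0.68 (SE 0.13, edgeR adjusted p = 0.000437), and it was enlarged under all 19 alternatives with the same threshold.

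All 8 reversed responses were rises in WT cells and falls in insR cells. SLC7A8, a transporter of large neutral amino acids, was at 8.78, 8.98 and 8.40 CPM in WT controls and 35, 32.8 and 27.3 in treated WT, against 351, 328 and 303 in insR controls and 225, 243 and 244 in treated insR. Every insR library was far above every WT library. SLC7A8 rose by 1.84 in WT cells and fell by 0.46 in insR cells (insR adjusted p = 0.00606), a difference of -2.30 (SE 0.15, adjusted p = 7.8e-11). The insR call was lost without insR control replicate 1 (adjusted p = 0.0658) or treated insR replicate 1 (0.0654), with 0.000263 to 0.0658 over the alternatives.

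IL3RA, the alpha chain of the interleukin-3 receptor, was at 2.46, 2.41 and 3.57 CPM in WT controls and 7.37, 5.38 and 7.84 in treated WT, against 20.4, 21.9 and 26.5 in insR controls and 11.6, 14.9 and 13.2 in treated insR. The 4 groups did not overlap, and all insR libraries were above all WT libraries. NDRG1, a gene induced by low oxygen, was at 20.9, 20.9 and 20.0 CPM in WT controls and 39.7, 40.5 and 38.7 in treated WT, and at 25.9, 23.6 and 26.2 in insR controls and 16.4, 15.8 and 14.4 in treated insR. Here untreated levels were close and the treated groups lay on opposite sides of both. The difference was -2.12 (SE 0.31, adjusted p = 1.64e-05) for IL3RA and -1.64 (SE 0.17, adjusted p = 1.63e-07) for NDRG1.

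TNFRSF1B, a receptor for tumour necrosis factor, rose from 34.9 ± 2.85 to 58.0 ± 0.637 CPM (SD, n = 3) in WT cells and fell from 73.6 ± 9.29 to 53.7 ± 1.98 in insR cells, so that treated levels were close. H2BC12, a histone H2B gene, went from 40.3 ± 2.59 to 76.3 ± 8.75 CPM and from 34.3 ± 6.92 to 22.6 ± 2.19. TFPI, the inhibitor of tissue factor, went from 84.4 ± 5.97 to 101 ± 5.43 CPM and from 168 ± 2.38 to 131 ± 6.03. NSG1, an endosomal protein of neurons, had responses of 0.49 and -0.96, and PPP1R16B, a phosphatase subunit, 0.73 and -0.89.

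The differences of all 8 were called under every alternative at that threshold, but none of the 8 was reversed under all of them, since a call within 1 genotype was lost. NDRG1 lost its insR call without treated insR replicate 3 (adjusted p = 0.0506, 0.00163 to 0.0506 over the alternatives). IL3RA lost it without any 1 of the insR libraries (0.064 to 0.222), and TFPI without the same libraries or treated WT replicate 3 (0.0578 to 0.205). TNFRSF1B lost it without insR control replicate 1 or 2, any treated insR library or treated WT replicate 3 and with a replicate block (0.0532 to 0.268). H2BC12 lost it without those libraries or WT control replicate 2, with a replicate block and with limma-voom (0.0532 to 0.345). NSG1 lost it without insR control replicate 1 or 3 or any treated insR library and with limma-voom (0.0589 to 0.192), and PPP1R16B without insR control replicate 1 or 3 or treated insR replicate 2 or 3 (0.0856 to 0.226). The WT call was lost for TFPI without WT control replicate 1 or treated WT replicate 2 and with no filter beyond 1 count (0.0591 to 0.0888), for NSG1 without replicate 1 or 3 of either WT group (0.0619 to 0.121) and for PPP1R16B without replicate 2 of either (0.0614 to 0.0897). The lowest insR adjusted p over the alternatives was 0.00779 for IL3RA, 0.00995 for TFPI, 0.012 for TNFRSF1B, 0.00165 for H2BC12 and PPP1R16B and 0.00201 for NSG1, and the lowest WT adjusted p was 0.00399 for TFPI, 0.0159 for NSG1 and 0.00675 for PPP1R16B. The count of reversed genes was 4 without treated WT replicate 3, 2, 4 and 5 without insR control replicate 1, 2 and 3, and 3, 2 and 1 without treated insR replicate 1, 2 and 3.

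For 53 genes called in WT cells, 43 higher and 10 lower, insR libraries had too few reads for a response to be read. PIEZO2, a mechanically gated ion channel, was at 42.0, 52.3 and 55.4 CPM in WT controls and 122, 112 and 115 in treated WT, and at most 0.207 CPM in any insR library. PI16, a peptidase inhibitor, had 0 reads in the 3 WT control libraries and 35.7, 34.2 and 30.3 CPM in treated WT, against 0 reads in 5 insR libraries and 0.351 CPM in insR control replicate 3. WLS, which carries Wnt proteins to the cell surface, was at 0.176, 0.536 and 0.893 CPM in WT controls and 18.5, 21.3 and 21.7 in treated WT, with 0.161 CPM in 1 insR library and 0 reads in the others. DLK1, a ligand-like membrane protein of the Notch family, rose in WT cells from 37.5 ± 0.941 to 61.5 ± 8.43 CPM (SD, n = 3), and the polarity gene PARD3 fell from 25.1 ± 0.449 to 16.2 ± 0.392. No fold in insR cells is given for these genes.

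For 4 genes the insR response and the difference were called and the WT response was not. The count was 7 without WT control replicate 1 and 1 without insR control replicate 1 or treated insR replicate 2. VSTM1, an inhibitory receptor of myeloid cells, was at 42.1, 49.7 and 51.3 CPM in WT controls and 58.4, 51.1 and 47.5 in treated WT, against 40.8, 42.2 and 33.7 in insR controls and 70.4, 63.5 and 66.0 in treated insR. The WT groups overlapped and the insR groups did not. Its difference was 0.65 (SE 0.16, edgeR adjusted p = 0.00393), and it stayed in this class under all 19 alternatives with the same threshold. SEMA4C, a semaphorin, BCL6B, a transcriptional repressor, and TMEM158 fell in insR cells by 0.56, 0.50 and 1.91 with WT responses of 0.02, 0.19 and -0.54. The insR call of SEMA4C was lost without insR control replicate 1 or 3 or treated insR replicate 1 or 2 (adjusted p 0.0608 to 0.115, and 0.00689 to 0.115 over the alternatives). That of TMEM158 was lost without insR control replicate 1 or treated insR replicate 2 or 3 (0.0998 to 0.109, and 0.000602 to 0.109 over the alternatives). Its difference was also lost without WT control replicate 3, treated WT replicate 1 or those 3 libraries (0.0574 to 0.0995, and 0.0188 to 0.0995 over the alternatives). BCL6B lost its insR call without any 1 of the insR libraries, WT control replicate 2 or treated WT replicate 2 or 3, with a replicate block and with limma-voom (0.0501 to 0.214, and 0.0268 to 0.214 over the alternatives). The scaffold gene AKAP12 and PHLDA1 fell in insR cells by 0.92 and 1.91, with neither the WT response nor the difference called. Their fitted WT responses were falls too, -0.42 for AKAP12 (edgeR adjusted p = 0.0562) and -0.85 for PHLDA1. PHLDA1 had low levels, with means of 1.54 CPM in WT controls, 0.816 in treated WT, 4.89 in insR controls and 1.31 in treated insR. PHLDA1 lost its insR call without insR control replicate 1 or any treated insR library (0.073 to 0.16, and 0.00165 to 0.16 over the alternatives).

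**Figure D4:**
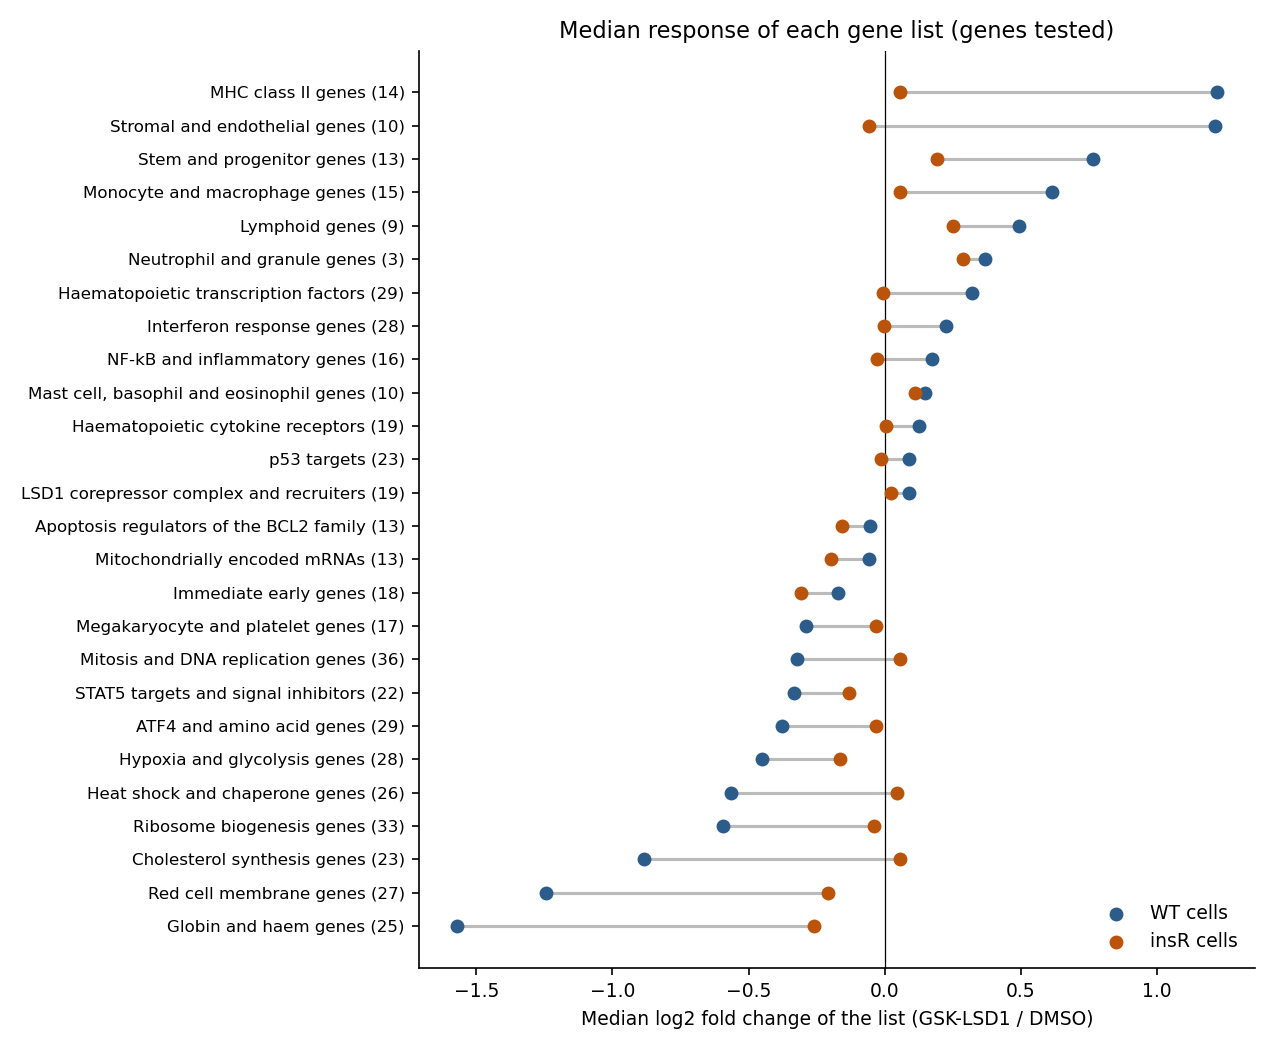
Median log2 fold change under GSK-LSD1 in WT cells (blue) and insR cells (orange) for 26 gene lists, with the number of members tested in parentheses. WT medians range from -1.57 for globin and haem genes to 1.22 for MHC class II genes, while insR medians lie between -0.31 and 0.29.

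The genes were also followed by function, in 26 lists, each described by its counts and median beside those of all genes (25.1% with a called difference, 22.7% higher and 22.5% lower in WT cells, 0.241% higher and 0.264% lower in insR cells, and medians of 0.011 in WT cells, -0.001 in insR cells and -0.0026 for the difference). Of all genes tested, 13.3% were more positive and 11.8% more negative, and a list with shares near these does not stand out. In a bulk sample fewer cells of a type and less RNA per cell cannot be told apart. Of 25 globin and haem genes tested, 19 had a more positive response in insR cells and 0 a more negative one, with medians of -1.57 in WT cells, -0.26 in insR cells and 1.66 for the difference. In WT cells 22 fell, and in insR cells HBA1, HBA2 and HBE1 fell, the last by 0.39. The HBE1 call was lost without any 1 insR library (edgeR adjusted p 0.0856 to 0.177, and 0.0147 to 0.177 over the alternatives). TFRC, the transferrin receptor that takes up iron, was at 1074, 1123 and 1163 CPM in WT controls and 343, 377 and 411 in treated WT, against 707, 903 and 988 in insR controls and 1015, 903 and 890 in treated insR. Its insR groups overlapped.

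Of 27 red cell membrane genes 17 were more positive and 1, EPB41, more negative, with medians of -1.24 in WT and -0.21 in insR cells. EPB42, protein 4.2 of the red cell skeleton, was at 9.13, 7.10 and 11.1 CPM in WT controls and 0.378, 0.384 and 0.916 in treated WT, against 58.7, 54.8 and 62.2 in insR controls and 68.2, 57.0 and 56.2 in treated insR. SPTB, beta spectrin, was at 6.32, 6.97 and 4.82 CPM in WT controls and 2.08, 1.34 and 1.22 after the drug, and at 14.6, 14.2 and 9.84 in insR controls and 8.86, 11.8 and 7.74 after the drug. Both genes were chosen for a lost WT fall and for AGATAA in their promoter windows, so these traits are no separate result. Their levels were lower in all treated than in all untreated WT libraries, and their insR groups overlapped. AQP1, a water channel, was at 25.2 ± 3.10 CPM (SD, n = 3) in WT controls and 0.162 ± 0.199 in treated WT, and at 65.4 ± 3.12 and 50.1 ± 4.90 in insR cells. ANK1, the ankyrin that anchors the skeleton, fell by 2.11 in WT cells and had an insR response of -0.15.

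Of 19 genes of the LSD1 complex and its recruiters, 1 was more positive and 4 more negative, with a median difference of 0.01. Over all genes 25.1% were called in either direction. The negative ones were GFI1, GFI1B, the zinc finger gene ZNF217 and PHF21A, a reader of unmethylated histone H3, and the positive one was TAL1, with a second without WT control replicate 2 or insR control replicate 3. ZNF217 rose by 1.13 and PHF21A by 0.69 in WT cells, and their insR responses of 0.22 and 0.07 were not called. Of 29 haematopoietic transcription factors 3 were more positive and 10 more negative. RUNX1 was at 134, 139 and 131 CPM in WT controls and 329, 341 and 333 in treated WT, against 150, 152 and 136 in insR controls and 143, 144 and 144 in treated insR. Its treated WT libraries stood alone and the insR groups overlapped. ERG rose by 1.43 in WT cells with an insR response of 0.36, and KLF1, a red cell factor, fell by 0.92 with an insR response of -0.03. BACH2, a repressor best known in lymphocytes, was at 12.7 ± 0.380 CPM (SD, n = 3) in treated WT and at most 1.07 in each of the other 9 libraries.

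Of 14 MHC class II genes, which present antigen and have similar copies whose separate values are uncertain, 9 were more negative and 0 more positive, with medians of 1.22 in WT and 0.06 in insR cells. HLA-DRA was at 23.2, 22.6 and 21.4 CPM in WT controls and 56.5, 61.2 and 67.8 in treated WT, against 70.8, 74.1 and 69.4 in insR controls and 88.6, 85.3 and 76.0 in treated insR. All insR libraries were above the treated WT libraries. The difference of HLA-DMA, -0.69 (edgeR adjusted p = 0.0281), was lost without WT control replicate 1 or 2, treated WT replicate 3, insR control replicate 2 or 3 or treated insR replicate 1 or 3 (0.0541 to 0.132, and 0.00708 to 0.132 over the alternatives). Of 15 monocyte genes 6 were more negative, among them the integrin ITGAM, which rose by 1.80 in WT and 0.82 in insR cells. The insR call of ITGAM was lost without insR control replicate 1 (adjusted p = 0.0658, 1.86e-05 to 0.0658 over the alternatives).

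Of 13 stem and progenitor genes 5 were more negative and 2 more positive. CD34 was at 298, 308 and 279 CPM in WT controls and 671, 713 and 704 in treated WT, against 370, 372 and 367 in insR controls and 455, 449 and 435 in treated insR. All treated insR libraries were above the untreated ones, with a response of 0.27 that was not called (adjusted p = 0.0925, 0.0151 to 0.377 over the alternatives). Of 17 megakaryocyte genes 4 were more negative and 5 more positive. ITGA2B, the platelet integrin alpha chain, rose by 0.68 in WT cells while its partner ITGB3 fell by 1.29, with insR responses of -0.04 and -0.02. Of 19 cytokine receptors 6 were more negative and 3 more positive, including the reversed genes IL3RA and TNFRSF1B. Without WT control replicate 2, treated WT replicate 3 or treated insR replicate 2, 1 cytokine receptor was more positive. Of 10 mast cell, basophil and eosinophil genes 2 were more negative and 1 more positive, beside 25.1% of all genes called in either direction.

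Of 33 ribosome biogenesis genes 28 were more positive in insR cells and 0 more negative, with medians of -0.60 in WT and -0.04 in insR cells, and 32 fell in WT cells. The nucleolar helicase DDX21 was at 1139, 1171 and 1128 CPM in WT controls and 611, 593 and 590 in treated WT, against 1250, 1228 and 1224 in insR controls and 1137, 1094 and 1120 in treated insR. Treated insR libraries were below untreated ones, with a response of -0.14 that was not called (adjusted p = 0.627). Of 23 cholesterol synthesis genes 17 were more positive and 0 more negative, with medians of -0.88 in WT and 0.06 in insR cells. HMGCS1, an early enzyme of the pathway, was at 255, 257 and 277 CPM in WT controls and 94.7, 101 and 99.2 in treated WT, against 115, 107 and 115 in insR controls and 128, 110 and 122 in treated insR. The insR groups overlapped, and all insR libraries lay much nearer to treated than to untreated WT.

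Of 36 mitosis and DNA replication genes 18 were more positive and 0 more negative, with medians of -0.32 in WT and 0.06 in insR cells. The mitotic activator CDC20 fell from 148 ± 11 to 87.1 ± 8.31 CPM (SD, n = 3) in WT cells and was at 208 ± 9.99 and 224 ± 1.20 in insR cells. Of 26 heat shock and chaperone genes 18 were more positive and 1 more negative, and the chaperonin HSPD1 fell by 1.04 in WT cells with an insR response of 0.07. Of 29 ATF4 and amino acid genes 13 were more positive and 2 more negative. WARS1, a tRNA synthetase, fell by 1.56 in WT and 0.37 in insR cells, and its insR call was lost without any 1 insR library (edgeR adjusted p 0.0609 to 0.185, and 0.00863 to 0.185 over the alternatives). Of 22 STAT5 targets and signal inhibitors 5 were more positive and 0 more negative, with the kinase PIM2 at -0.99 in WT and -0.12 in insR cells. PIM3, a related kinase, had a difference of 0.38 (edgeR adjusted p = 0.0194), which was lost without treated WT replicate 3, insR control replicate 1 or treated insR replicate 2 (0.0531 to 0.0649, and 0.00964 to 0.0649 over the alternatives). In this list 1 gene was more negative without WT control replicate 1 or 3 or treated WT replicate 1.

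Of 28 hypoxia and glycolysis genes 9 were more positive and 4 more negative. VEGFA, a vascular growth factor, and SLC2A1, a glucose transporter, fell by 1.55 and 2.05 in WT cells, with insR responses of -0.10 and -0.39 that were not called. BNIP3L, a mitophagy receptor, rose by 1.20 in WT cells and had an insR response of -0.08, and NDRG1 was reversed as given above. Of 18 immediate early genes 5 were more negative and 3 more positive, and EGR1 was the member kept. FOSL2 rose by 1.66 in WT and 0.52 in insR cells, and its insR call was lost without insR control replicate 1 or 3 or treated insR replicate 2 or 3 (adjusted p 0.064 to 0.197, and 0.00165 to 0.197 over the alternatives).

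Of 28 interferon response genes 6 were more negative and 1 more positive, beside 25.1% of all genes called in either direction. Of 16 NF-kB and inflammatory genes 4 were more negative, and of 23 p53 targets 5 were more negative and 4 more positive. NFKBIA, the inhibitor of NF-kB, rose by 0.91 in WT cells with an insR response of 0.00. Of 13 BCL2 family genes 1 was more negative, BBC3, which promotes cell death and is also among the p53 targets. Its difference of -0.58 (edgeR adjusted p = 0.0238) was lost without WT control replicate 2, treated WT replicate 3, insR control replicate 1 or treated insR replicate 2 or 3 (0.0615 to 0.0924, and 0.00886 to 0.0924 over the alternatives), which left 0 called in the BCL2 list. That list had 2 more negative genes without insR control replicate 3, and 1 more positive without treated WT replicate 1 or treated insR replicate 3. Without WT control replicate 2, treated WT replicate 3, insR control replicate 1 or treated insR replicate 3, 3 p53 targets were more negative. The interferon list had 2 more positive genes without WT control replicate 3, treated WT replicate 2, or replicate 3 of either insR group, and the NF-kB list 1 without insR control replicate 1. In the NF-kB list the differences of NFKBIE and NFKBIZ were also fragile. That of NFKBIE was lost without insR control replicate 1 (adjusted p = 0.05004, 0.00497 to 0.05004 over the alternatives). That of NFKBIZ was lost under 10 alternatives (0.0522 to 0.107, and 0.0255 to 0.107 over all), among them the omission of WT control replicate 1 or 2, treated WT replicate 3, insR control replicate 2 or 3 or any treated insR library. Of 13 mitochondrial mRNAs 1, MT-ND6, was more positive, and between 1 and 4 were more negative without WT control replicate 2, treated WT replicate 2, insR control replicate 2 or treated insR replicate 3.

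Lists of cell types that the culture should not hold were read in the same way. Of 9 lymphoid genes tested none had a called difference in edgeR, though 1 was more negative without WT control replicate 2 or 3 or treated insR replicate 3, and their summed level was 67.0 to 69.2 CPM in WT controls, 89.2 to 100.4 in treated WT, 44.3 to 51.4 in insR controls and 49.2 to 56.8 in treated insR. Of 21 neutrophil and granule genes 3 were tested, none with a called difference in edgeR and 1 more negative without WT control replicate 2 or treated insR replicate 2 and in limma-voom, and the sum did not pass 18.1 CPM in any library. Of 10 stromal and endothelial genes 3 were more negative, with sums of 132 to 181 CPM in WT controls, 526 to 617 in treated WT, 157 to 174 in insR controls and 174 to 180 in treated insR. VIM, the filament protein vimentin, which blood cells also express, made up most of this sum, at 119 ± 25.1, 504 ± 51.7, 95.2 ± 6.87 and 114 ± 6.93 CPM (SD, n = 3) in the 4 groups. Over all libraries 4 of the 21 lymphoid, 9 of the 21 neutrophil and 5 of the 20 stromal genes had 0 reads. The part of other cell types in the differences was not tested.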

How the data were processed

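RNA was profiled in 12 SET-2 libraries (4 groups of 3) with a 3' forward polyA kit, per the labels' protocols. The values are read counts per gene as deposited by the authors, 1 file a library. The submitters' processing notes name bcl2fastq 2.2, STAR 2.6.0c, HTSeq 0.9.1, DESeq2 and hg19. Neither the annotation release nor the strand option of HTSeq is stated there or in the labels, and genes that overlap or lie antisense to others therefore have uncertain values. Lines of the files without a gene (unassigned reads) entered neither the library sizes nor the tests. The authors' deposited normalized table was not used.

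edgeR 4.0.16 (R 4.3.3) was fitted once over all 12 libraries and all genes that passed filterByExpr, with TMM scaling, 1 coefficient per group and the robust quasi-likelihood test. Tests were 2-sided, and p-values were adjusted over all 12864 genes by the Benjamini-Hochberg method, with calls below 0.05. The WT response, the insR response and their difference were contrasts of that fit. CPM are counts scaled to a common library size, with TMM factors, and means are given with the SD over 3 libraries. On counts simulated for the difference over 12864 genes with 200 changed, 32% of 1.5-fold, 78% of 2-fold, 100% of 4-fold and 98% of 8-fold changes were recovered, with 13 false calls. The changed genes were drawn only from genes above a minimum mean level, and far fewer changed than were called in WT cells. The recovery therefore does not cover genes of low counts, such as many undecided ones.

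The members, classes and gene lists were chosen with earlier results of these data known. Named genes had a mean of at least 10 CPM in 1 group: per WT direction the 8 largest differences among lost genes with at least 1 CPM in each group, up to 6 reversed, 6 kept, 4 reduced and 4 enlarged genes, 4 insR-only genes per insR direction, 5 genes not detected in insR cells, and per list up to 4 of lowest p for the difference. Other names (among them NSG1, PPP1R16B, ABCB9, TMEM158, STAB1, TIMP2, IL6R, HBE1, TAL1, EPB41, EPB42, SPTB, AKAP12 and PHLDA1) were added after their values were seen. The alternatives were DESeq2 1.42.0, its size factors, upper-quartile scaling, limma-voom (limma 3.58.1), 2 other filters, a replicate block, a stricter threshold of 0.01, other minimum sizes of the WT response, and leaving out each library. Python 3.11.15 with pandas 2.3.3 and numpy 2.4.6 was used for tables, and matplotlib 3.10.9 for figures. Of the 119 genes that the rule names, some list members are covered by the counts of their list only, and a few genes are not reported here.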

Additional observations from a re-analysis of the deposited data

Results flagged for a closer look

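The effect of the drug differed between genotypes by the test of the difference itself in 3228 genes, 1711 more positive and 1517 more negative in insR cells (1501 and 1712 with upper-quartile scaling). In 8 genes the responses were also called in opposite directions, with a difference of -2.30 on the log2 scale for SLC7A8, -1.64 for NDRG1, -1.53 for H2BC12, -1.19 for TNFRSF1B, -2.12 for IL3RA, -0.62 for TFPI, -1.455 for NSG1 and -1.615 for PPP1R16B.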

How the results depend on the processing

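The limit of these results is the insR response, where few genes were called and 1 library moved the counts, while the count of differences stayed within 1.5 times under every alternative at the threshold of 0.05. At 0.01, 1896 differences were called (1026 more positive, 870 more negative), with 25 genes in the insR response (16 higher, 9 lower), 4 kept, 15 reduced, 2 reversed, 1852 lost and 1 responding in insR cells only. With no filter beyond 1 count, 118 genes were called in the insR response (57 higher, 61 lower), 29 were kept, 62 reduced, 2 enlarged, 116 not detected in insR cells and 7 insR only. DESeq2 called 50 genes higher in insR cells and 17 kept, and limma-voom gave 2 enlarged and 2 insR-only genes. With WT calls of any size 3094 genes were lost and 2610 undecided, and from 4-fold 240 and 94, against 981 and 489 from 2-fold. Leaving out 1 library gave 28 to 91 genes in the insR response (16 to 46 higher, 9 to 45 lower), 5 to 16 kept, 15 to 55 reduced, 1 to 2 enlarged, 1 to 7 reversed and 1 to 7 insR-only genes. Upper-quartile scaling gave 1501 more positive and 1712 more negative differences, and 3231 higher and 2564 lower genes in WT cells. The deviations of libraries numbered 2 correlated positively across groups in all 6 pairs (0.20 to 0.44), while pairs numbered 1 or 3 had both signs (-0.43 to 0.49). Since not every same-numbered pair was positive, and 4 of 12 libraries correlated best with their own number, the numbers were not taken to pair the samples. Pairs with different numbers ranged more widely, from -0.68 to 0.59. Libraries of different groups thus shared variation that does not follow the numbers and that a replicate block does not model. With a replicate block 3198 differences (1709 and 1489), 5818 WT and 60 insR responses (28 higher, 32 lower) were called, with 10 kept, 37 reduced, 2 enlarged, 6 reversed, 3075 lost and 3 insR only. Over named genes and alternatives, 2874 values kept their direction and call, 144 lost a call, 2 gained one and 0 changed direction. The causes of these shifts were not tested.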

Other observations

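In 80 genes the difference was called while neither genotype's own response was, 31 more positive and 49 more negative in insR cells, and 79 of them had fitted responses of opposite sign. Choosing genes in this way favours opposite signs, so the 79 are not a separate result. VEPH1 had responses of -0.28 in WT and 0.43 in insR cells, ITGB5 0.32 and -0.52, IGFBP4 0.14 and -0.54, and REEP5 0.10 and -0.47. These 4 genes were chosen after their values were seen.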
